A study of Mus musculus with 12 samples.

Results

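The genes described here are 10 ligands, receptors and signalling partners of axon guidance: the ephrin Efna2 and the Eph receptor Epha4, the semaphorin Sema4c, the co-receptor Nrp2 and the plexins Plxna2 and Plxnc1, the netrin Ntn4 and the netrin receptor Unc5b, the adhesion receptor Adgrb3 and the GTPase-activating protein Srgap2. They were chosen by name, and all 10 were found by Entrez Gene ID among the 2398 genes of the count table. Srgap2 is an intracellular protein and Adgrb3 is an adhesion G protein-coupled receptor, so the set is wider than ligands and receptors of guidance in the strict sense. The cells were GFP-positive, propidium iodide-negative cells sorted from brains of C57BL/6 mice that carried the Ndrg1-EGFP reporter of myelinating oligodendrocytes. The 3 biological replicates called WT were Cnp+/+;Lmnafl/fl, and the 3 called KO were CnpCre/+;Lmnafl/fl. Age is given as postnatal day 60 in one label and as 8 weeks in another. Floxed Lmna, the gene of lamins A and C, was thus shared by all mice, and Cre is made from 1 Cnp allele, a gene of the oligodendrocyte lineage. Lmna recombination, the presence of Cre and the loss of an intact Cnp copy thus come together in KO and cannot be told apart. The labels do not say whether a replicate pooled several animals.

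Axon guidance molecules steer growing axons and migrating cells by attraction and repulsion. Ephrins are held on the cell surface and bind Eph receptor tyrosine kinases on neighbouring cells, semaphorins signal through plexins with neuropilins as co-receptors, and netrins signal through DCC and UNC5 receptors. In the oligodendrocyte lineage these families are known for guiding migrating progenitors and for acting in process growth and contact between myelin and axon.

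Counts in the table's genes summed to between 3694551 and 6093336 per replicate, after the 2 libraries of each replicate were added together. A chi-square test over genes compared the difference between these 2 libraries with sampling noise. It gave p from 0.0594 to 0.486, with a chi-square of 1 to 1.06 per degree of freedom. CPM stands here for counts brought to a common total in every replicate, that total being taken over the 1484 genes that passed the filter on low counts, with TMM factors. The table covers chromosome 1 and chromosome 10 up to 111.3 Mb, so Lmna and Cnp were not analysed here and recombination was not checked. Of 20 mature oligodendrocyte markers 2 lie in this table, Adamts4 and Nfasc, and their summed level was 10321 to 11902 CPM in WT and 14783 to 17097 CPM in KO. Neither was called in the edgeR test of KO against WT (adjusted p = 0.504 and 0.927). Summed levels of other markers ranged over the 6 replicates from 0.497 to 95.6 CPM for 2 progenitor genes, 16.1 to 252 CPM for 3 neuronal genes, 3431 to 7484 CPM for 5 astrocyte genes, 236 to 665 CPM for 8 leukocyte genes, 18.8 to 65.6 CPM for 4 endothelial genes, 863 to 1432 CPM for 10 mural and fibroblast genes, 9.18 to 144 CPM for 2 ependymal and choroid plexus genes and 241 to 3412 CPM for 3 immediate early genes. S100b, which oligodendrocytes also express, made up most of the astrocyte sum. The leukocyte sum was 236 to 334 CPM in WT and 309 to 665 CPM in KO, and these ranges overlapped. All 7 leukocyte genes tested had a log2 fold change above 0, KO over WT, and 0 were called by edgeR. In sorted bulk RNA, fewer cells of a type and less RNA per cell cannot be told apart.

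The stretch before the transcription start is shown for 3 of the genes: Unc5b, which had the highest level, Nrp2, which had the smallest p in the edgeR test, and Ntn4, which had the lowest level. Each line holds the 250 bases before the start as RefSeq gives them for GRCm38.p6, the build also called mm10, read 5′ to 3′ on the gene's strand, and capitals mark CpG dinucleotides (CG on either strand).
Unc5b, chr10:60831582-60831831, minus strand: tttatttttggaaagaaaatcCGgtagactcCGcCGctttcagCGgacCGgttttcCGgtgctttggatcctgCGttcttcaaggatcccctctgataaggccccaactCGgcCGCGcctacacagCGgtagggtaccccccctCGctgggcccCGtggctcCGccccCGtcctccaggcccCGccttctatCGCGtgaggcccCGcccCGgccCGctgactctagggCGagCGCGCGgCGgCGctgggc
Nrp2, chr1:62703067-62703316, plus strand: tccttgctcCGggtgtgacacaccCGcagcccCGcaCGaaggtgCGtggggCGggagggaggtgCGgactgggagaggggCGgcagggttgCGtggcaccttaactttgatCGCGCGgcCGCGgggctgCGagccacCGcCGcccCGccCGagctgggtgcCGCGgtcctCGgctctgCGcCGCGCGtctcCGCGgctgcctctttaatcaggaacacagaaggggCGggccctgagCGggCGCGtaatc
Ntn4, chr10:93640799-93641048, plus strand: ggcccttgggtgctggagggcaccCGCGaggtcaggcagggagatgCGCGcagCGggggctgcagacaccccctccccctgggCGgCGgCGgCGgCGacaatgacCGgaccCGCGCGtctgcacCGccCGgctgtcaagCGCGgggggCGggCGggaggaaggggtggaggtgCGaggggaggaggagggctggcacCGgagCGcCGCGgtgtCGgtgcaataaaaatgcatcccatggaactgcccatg
The Nrp2 window held 32 CpGs, the most of any start of the 10 genes, and 92.4% of the starts of tested genes held as many or fewer. Unc5b had 27 and Ntn4 26, so windows of nearly the same CpG count stood before the most and the least abundant gene. All 10 genes had a start in the table, with 11 starts in total because Sema4c had 2, and their CpG counts ran from 14 to 32. Over 1478 starts of tested genes the median was 15, and 98.1% held at least 1 CpG. GC content was 66.8% before Unc5b, 72.4% before Nrp2 and 73.2% before Ntn4, beside a median of 59.6%.

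The 10 genes spanned a wide range of levels. Divided by the length of the longest coding transcript in GENCODE M21, which lets genes be compared with each other, Unc5b stood at 399 ± 81.2 CPM per kb (SD, n = 6) and Efna2 at 148 ± 30.5 CPM per kb. Sema4c followed at 73.7 ± 9.64 CPM per kb, Srgap2 at 43.3 ± 8.39 CPM per kb and Epha4 at 29.4 ± 5.0 CPM per kb. Below them were Nrp2 at 11.5 ± 3.70 CPM per kb and Adgrb3 at 6.31 ± 1.70 CPM per kb. The order of these 7 genes was the same in each of the 6 replicates, and ranges of neighbours did not overlap except for Srgap2 and Epha4, where Srgap2 was nonetheless the higher gene in all 6. Plxna2 at 1.44 ± 0.566 CPM per kb, Plxnc1 at 1.06 ± 0.834 CPM per kb and Ntn4 at 0.625 ± 0.836 CPM per kb had overlapping ranges. Plxna2 exceeded Plxnc1 in 4 replicates, and Plxnc1 exceeded Ntn4 in 4, so the order of these 3 genes did not hold beyond their spread. The median over 1302 tested genes with a length was 45.6 CPM per kb, so that Unc5b, Efna2 and Sema4c lay above it and the other 7 below it. The receptor Unc5b was thus abundant in the same sorted samples in which the netrin Ntn4 was low, at 0 to 36 counts per replicate. Of 19 listed netrins and netrin receptors, only these 2 lie in the table. The ephrin Efna2 stood above the receptor Epha4.

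**Figure D1:**
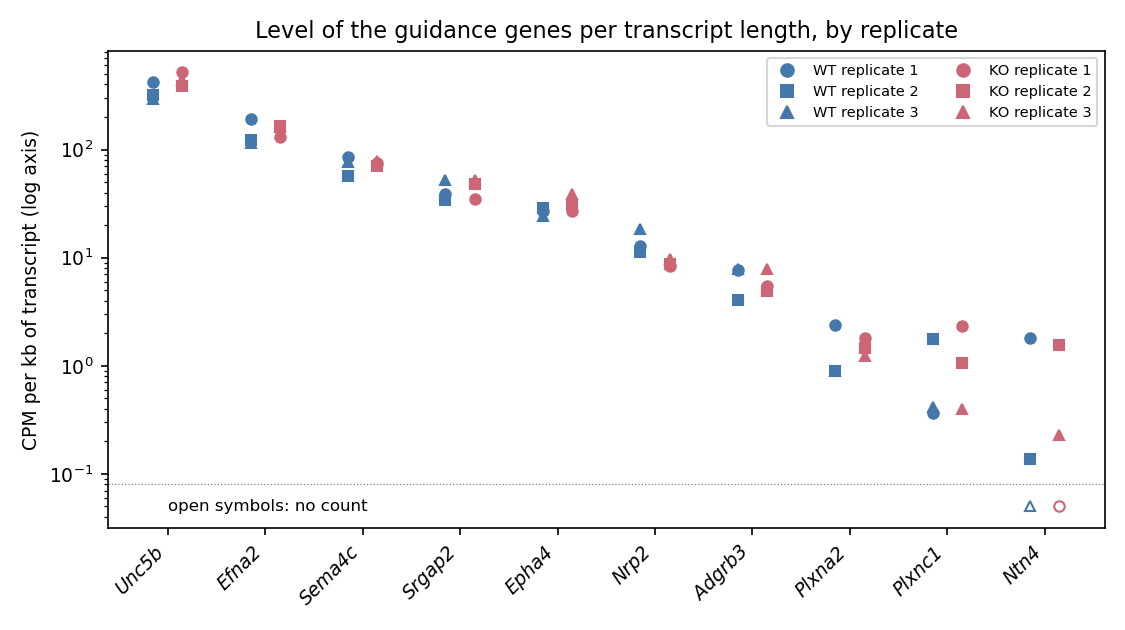
Level of each gene in CPM per kb of its longest coding transcript on a log axis, 1 symbol per biological replicate (WT blue, KO red), with open symbols for replicates that had no count. Levels descend from Unc5b, at 295 to 517 CPM per kb, to Ntn4, where WT replicate 3 and KO replicate 1 had no count.

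The comparison of KO with WT asked whether any of these genes changed in oligodendrocytes in which Lmna was targeted. No gene of the set passed the quasi-likelihood test of edgeR after Benjamini-Hochberg adjustment over all 1484 genes, 0 of the 9 that could be tested, and in the whole table the share called was 0% (0 genes). At an unadjusted edgeR p under 0.05 there was 1 of the 9, Nrp2, beside 3.98% of all genes, and Unc5b stood at 0.05. On the same 6 replicates Nrp2 had an unadjusted p of 0.0223 in DESeq2 and 0.0242 in limma-voom. Unc5b had 0.0209 in DESeq2 and 0.0429 in limma-voom. Of all 1484 genes, 66 were under 0.05 in DESeq2 and 63 in limma-voom. After adjustment both methods called 0 of the 9, where DESeq2 called 6 genes of the table higher and 1 lower and limma-voom 0. Ntn4 was too low for the filter. Log2 fold changes were above 0 in 7 of the 9 and below 0 in 2, with a median of 0.11 (0.0042 over these 9 without WT replicate 2), where the 1484 genes had 734 above and 750 below 0 and a median of -0.01. For 1 of the 9, Nrp2, WT and KO values did not overlap, beside 8.49% of all genes, of which 4.04% had KO below WT, as Nrp2 did, and 4.45% had KO above.

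**Figure D2:**
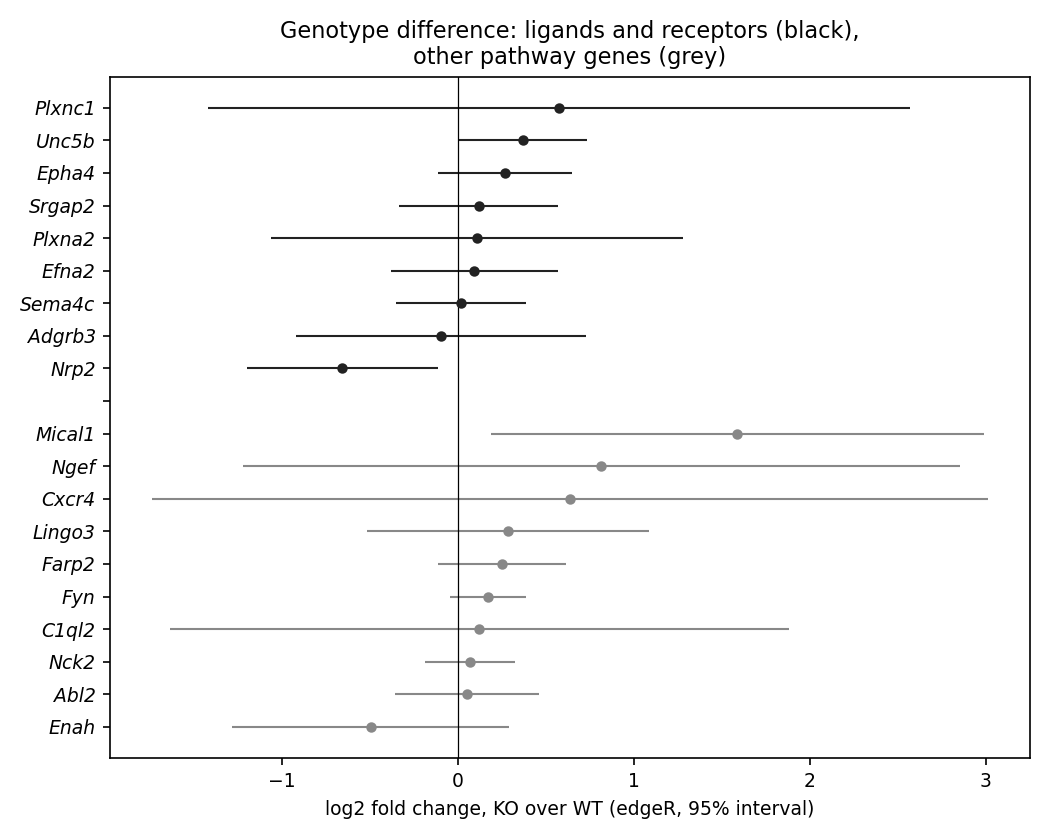
Log2 fold change, KO over WT, from edgeR with its 95% interval, for the 9 guidance genes tested (black) and for the 10 other pathway genes tested (grey). Among the black points the interval of Nrp2, from -1.20 to -0.11, is the one that lies wholly to one side of 0, and Mical1 is the grey gene for which this holds.

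Efna2 encodes ephrin-A2, a ligand anchored in the membrane by a lipid. It stood at 413 CPM in WT replicate 1, 261 in WT replicate 2 and 243 in WT replicate 3, and at 280.0, 349 and 348 CPM in KO replicates 1, 2 and 3. The WT replicates spanned more than the KO replicates, which all lay within the WT range. KO over WT, the log2 fold change was 0.09 ± 0.21 (SE), with an edgeR adjusted p of 0.994. It was 0.37 without WT replicate 1, the replicate with the highest level (adjusted p = 0.809), and -0.04 without WT replicate 3 (adjusted p = 0.998).

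Epha4 encodes a receptor that binds ephrins of both the A and the B class. Its levels were 171, 181 and 154 CPM in WT replicates 1, 2 and 3 and 170.0, 196 and 244 CPM in the KO replicates in the same order. The highest values were those of KO replicates 2 and 3, while KO replicate 1 lay inside the WT range. The genotype means were 169 ± 13.4 CPM (WT) and 203 ± 37.8 CPM (KO; SD, n = 3). The log2 fold change of 0.27 ± 0.17 (SE) had a 95% interval from -0.11 to 0.65, and the edgeR adjusted p was 0.994. Without KO replicate 3 it was 0.11 (adjusted p = 0.999). Epha4 occupies chromosome 1 from 77367182 to 77515107 (mm10), and Efna2 chromosome 10 from 80179482 to 80190010.

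Sema4c encodes a transmembrane semaphorin whose receptors are plexins of the B class, and it had the smallest spread of the 10 genes over the 6 replicates. It stood at 335, 222 and 299 CPM in WT replicates 1, 2 and 3 and at 290.2, 274 and 302 CPM in the KO replicates. The KO values lay close together inside the wider WT range. With a log2 fold change of 0.02 ± 0.16 (SE) and a 95% interval from -0.35 to 0.39, ratios above 1.31 or below 0.783 lay outside the interval (edgeR adjusted p = 0.994). The non-coding gene D430040D24Rik overlaps 334 exonic bases of Sema4c, 7.27% of them, on the opposite strand, and the sources used here do not say whether reads were counted by strand.

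Nrp2 encodes neuropilin-2, a co-receptor for secreted semaphorins that is also known from blood and lymphatic vessels. It stood at 86.6 CPM in WT replicate 1, 75.3 in WT replicate 2 and 123 in WT replicate 3, and at 56.7, 59.1 and 65.0 CPM in KO replicates 1, 2 and 3. The KO replicates all lay below the WT replicates, the KO values were close together, and WT replicate 3 stood apart on the high side. WT averaged 94.97 ± 24.9 CPM and KO 60.2 ± 4.27 CPM (SD, n = 3). This gave a log2 fold change of -0.66 ± 0.24 (SE), a ratio of 0.634 with a 95% interval from 0.435 to 0.924. The unadjusted edgeR p was 0.0232, the 35th smallest of the 1484 genes, and the adjusted p was 0.927. Of the settings tried, it fell below the threshold only where the 12 libraries were treated as separate samples (log2 fold change -0.65, edgeR adjusted p = 0.0344), a fit that counts libraries of the same replicate as independent. Leaving out WT replicate 3 moved the log2 fold change to -0.42 (edgeR adjusted p = 0.924), and the other 5 omissions gave values from -0.79 to -0.62. Nrp2 lies on chromosome 1 from 62703317 to 62818692.

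Levels of markers of other cells beside Nrp2 were as follows. The neuronal sum was 252 CPM in WT replicate 3, the other 5 replicates ranging from 16.1 to 67.9 CPM, and the immediate early sum was also highest there, at 3412 CPM. The endothelial sum was 26.5 to 65.6 CPM in WT and 18.8 to 38.2 CPM in KO, highest in WT replicate 2, which had the lowest Nrp2 level of the WT group. Among these genes Cd34 stood at 31.0, 58.4 and 25.2 CPM in WT and 38.2, 21.7 and 18.4 CPM in KO, and the genotypes overlapped. Sox17 was picked out after its values were seen and was too low for the filter. It stood at 1.52, 7.20 and 1.26 CPM in WT and 0, 0.79 and 0.41 CPM in KO. All its KO values were below all its WT values, beside 4.04% of the genes tested. For Selp and Sele, the other endothelial genes of the table, the genotypes overlapped. The progenitor sum was 0.497 to 36.6 CPM in WT and 12.3 to 95.6 CPM in KO. Their part in the Nrp2 difference was not tested.

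**Figure D3:**
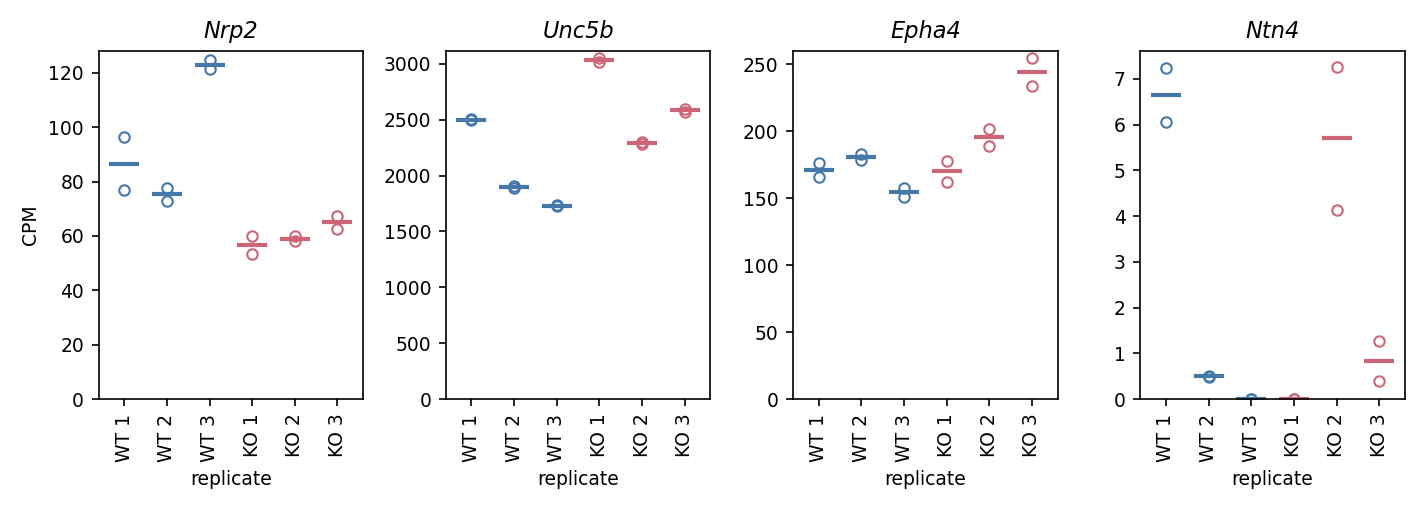
CPM on a linear axis for Nrp2, Unc5b, Epha4 and Ntn4, with 1 open circle per library and a bar for the biological replicate (WT blue, KO red). The 2 libraries of a replicate differ by at most 1.25-fold for Nrp2, Unc5b and Epha4. For Ntn4 they differ by up to 3.1-fold, in KO replicate 3, where they held 3 and 1 counts. The Nrp2 bars of KO (56.7 to 65.0 CPM) are below those of WT (75.3 to 123 CPM), and Ntn4 is high in WT replicate 1 and KO replicate 2.

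Plxna2 encodes a plexin that pairs with neuropilins to receive secreted semaphorins, and Plxnc1 encodes the plexin that binds semaphorin 7A. Both were low, with 40 to 137 counts per replicate for Plxna2 and 14 to 60 for Plxnc1. Plxna2 stood at 26.0, 9.94 and 9.90 CPM in WT replicates 1, 2 and 3 and at 19.9, 16.0 and 13.7 CPM in the KO replicates. WT replicate 1 held the highest value and the other WT replicates the lowest, with all KO replicates in between. The exact Poisson 95% interval of WT replicate 1, 21.9 to 30.8 CPM, did not reach that of WT replicate 2, 7.10 to 13.5 CPM, so the spread within WT exceeded counting error. The log2 fold change of 0.11 ± 0.52 (SE, edgeR adjusted p = 0.994) was 0.73 without WT replicate 1 (adjusted p = 0.879) and -0.11 without WT replicate 2 (adjusted p = 0.996).

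Plxnc1 varied most among the 9 genes tested. It stood at 2.66, 12.9 and 3.06 CPM in WT replicates 1, 2 and 3 and at 17.1, 7.76 and 2.90 CPM in the KO replicates. WT replicate 2 and KO replicate 1 were high, so the groups overlapped over almost their whole range. The log2 fold change was 0.57 ± 0.88 (SE, edgeR adjusted p = 0.994), and it was 1.68 without WT replicate 2 (adjusted p = 0.996) and -0.21 without KO replicate 1 (adjusted p = 0.995). In the same order of replicates, the fibroblast and vessel matrix gene Fn1 stood at 99.2, 196, 38.5, 330, 103 and 78.0 CPM, and Col6a1 at 98.2, 135, 27.6, 244, 78.5 and 46.3 CPM, both also highest in KO replicate 1 and WT replicate 2. These 2 of the 10 mural and fibroblast genes were picked out after their values were seen. Dcn was also highest in KO replicate 1 (181 CPM) and WT replicate 2 (163 CPM). Col6a2, the most abundant of the 10, was highest in KO replicate 2 (846 CPM) and lowest in KO replicate 1 (397 CPM). Col5a2 was highest in KO replicate 2 (44.2 CPM), Igfbp2 in WT replicate 1 (270 CPM), Col3a1 in KO replicate 1 (123 CPM) and Lum in WT replicate 2 (14.7 CPM). The summed level of all 10 was 863 to 1185 CPM in WT and 1036 to 1432 CPM in KO, highest in KO replicate 1. Within WT it was highest in WT replicate 1 (1185 CPM), beside 1131 CPM in WT replicate 2. Of the mural markers, Rgs5 and Des stayed under 1 CPM in all replicates. The part of such cells in the Plxnc1 level was not tested.

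Unc5b encodes a receptor of netrin-1 that mediates repulsion and is also described as a dependence receptor, one that signals cell death when its ligand is missing. By mean CPM it was the 93rd of the 1484 genes tested. Its levels were 2499, 1896 and 1732 CPM in WT replicates 1, 2 and 3 and 3034, 2291 and 2583 CPM in the KO replicates. KO replicates 1 and 3 lay above all WT replicates, whereas KO replicate 2 fell below WT replicate 1, so the groups overlapped. WT averaged 2042 ± 404 CPM and KO 2636 ± 374 CPM (SD, n = 3). Between them the log2 fold change was 0.37 ± 0.16 (SE), a ratio of 1.29 with a 95% interval from 1.00 to 1.67, and the edgeR p was 0.05 unadjusted and 0.994 adjusted. Without WT replicate 1 the log2 fold change was 0.54, with an adjusted p of 0.747 in edgeR and of 0.049 in DESeq2. Leaving out each of the other replicates gave values between 0.25 and 0.46 in edgeR. The sum of the mature oligodendrocyte genes Adamts4 and Nfasc stood at 11887, 10321 and 11902 CPM in WT replicates 1, 2 and 3. In KO replicates 1, 2 and 3 it stood at 14783, 15586 and 17097 CPM. KO replicate 1, highest for Unc5b, had the lowest sum of the KO group. WT replicate 3, lowest for Unc5b, had the highest sum of the WT group. Neither gene was called (edgeR adjusted p = 0.504 and 0.927). For both, all KO values were above all WT values, beside 4.45% of all genes. The part of this sum in the Unc5b level was not tested. Each replicate held at least 7632 counts of the gene, and the 2 libraries of a replicate differed by at most 1.01-fold. Unc5b lies on chromosome 10 from 60762594 to 60831581.

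Ntn4 encodes netrin-4, a secreted protein of basement membranes that binds laminins. It had 35 counts in WT replicate 1, 2 in WT replicate 2 and 0 in WT replicate 3, and 0, 36 and 4 counts in KO replicates 1, 2 and 3. The corresponding levels were 6.65, 0.497 and 0 CPM in WT and 0, 5.70 and 0.828 CPM in KO. A replicate of each genotype was high and the others at or near 0. For the replicates with no count, a floor of 3 counts corresponds to 0.540 CPM in WT replicate 3 and 0.855 CPM in KO replicate 1. Their exact Poisson 95% intervals reach up to 0.664 and 1.05 CPM, for counting error only. The exact Poisson 95% intervals were 4.63 to 9.25 CPM for WT replicate 1 and 3.99 to 7.89 CPM for KO replicate 2. Both libraries of each high replicate carried the transcript, with 19 and 16 counts in WT replicate 1 and 23 and 13 in KO replicate 2. Of the endothelial markers, Selp stood at 0.19 CPM in WT replicate 1 and 2.69 CPM in KO replicate 2, Sele at 0.38 and 1.11 CPM, and both were at 0 in the other 4 replicates. Selp and Sele were picked out after their values were seen. The sum of the 4 endothelial genes was 33.1 CPM in WT replicate 1 and 26.3 CPM in KO replicate 2, within the range of the other replicates. Of the 2 ependymal and choroid plexus genes, Kcnj13 stood at 131 CPM in WT replicate 1 and 1.58 CPM in KO replicate 2. The other, Rsph4a, stood at 12.7, 8.69 and 0.720 CPM in WT and 6.27, 14.9 and 9.72 CPM in KO. Its highest values were those of KO replicate 2 and WT replicate 1, as for Ntn4. The part of such cells in the Ntn4 level was not tested. In a fit with no filter on low counts the log2 fold change of Ntn4 was -0.10 (edgeR adjusted p = 0.991).

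Adgrb3, also called Bai3, encodes an adhesion receptor that binds C1q-like proteins at synapses. It stood at 42.0, 22.1 and 42.5 CPM in WT replicates 1, 2 and 3 and at 29.9, 26.8 and 43.0 CPM in the KO replicates. The highest value was that of KO replicate 3 and the lowest that of WT replicate 2, and the ranges overlapped. Its log2 fold change was -0.10 ± 0.36 (SE, edgeR adjusted p = 0.994), and 3 of the 6 omissions of a replicate put it above 0. C1ql2, a C1q-like gene of the table, averaged 3.12 ± 1.43 CPM over WT and 3.34 ± 1.505 CPM over KO (SD, n = 3).

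Srgap2 encodes an F-BAR protein that shapes membrane protrusions and switches off Rac. It stood at 310.5, 274 and 417 CPM in WT replicates 1, 2 and 3 and at 282, 383 and 422 CPM in the KO replicates. Each genotype had low and high replicates. The log2 fold change of 0.12 ± 0.20 (SE) had a 95% interval from -0.33 to 0.57 (edgeR adjusted p = 0.994), and it was 0.32 without WT replicate 3 and -0.01 without KO replicate 3 (adjusted p = 0.928 and 0.999).

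Among the other genes of these pathways, taken from family lists of 177 genes, 10 lay in the table and all were tested. None passed the edgeR test after adjustment over all genes, 0 higher and 0 lower in KO, and 1, Mical1, had an unadjusted p under 0.05, beside 3.98% of all genes. Their log2 fold changes were above 0 in 9 and below 0 in 1, with a median of 0.21, beside 734 above and 750 below 0 and a median of -0.01 over all 1484. WT and KO values did not overlap in 2 of the 10, Fyn above and Enah below, beside 4.45% and 4.04% of all genes. The most abundant were Fyn, Nck2 and Farp2. Fyn, a Src-family kinase that acts downstream of plexins and in myelination, stood at 1285, 1398 and 1286 CPM in WT and 1467, 1528 and 1475 CPM in KO. All KO values were above all WT values, with a log2 fold change of 0.17 ± 0.10 (SE, edgeR adjusted p = 0.994). Nck2, an adaptor of Eph and ephrin signalling, averaged 380.1 ± 27.5 CPM over WT and 399 ± 4.90 CPM over KO (SD, n = 3). Farp2, a Rac exchange factor that binds plexin A, averaged 142 ± 6.90 CPM over WT and 169 ± 25.8 CPM over KO. Lingo3, of the family of the Nogo receptor partner LINGO-1, averaged 24.9 ± 6.97 CPM over WT and 30.4 ± 4.56 CPM over KO.

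Mical1 and Enah were picked out after their values were seen. Mical1, a monooxygenase that disassembles actin downstream of plexins, stood at 9.31, 2.98 and 6.12 CPM in WT and 8.83, 22.3 and 24.4 CPM in KO. KO replicates 2 and 3 were high, and KO replicate 1 lay within the WT range. Its log2 fold change was 1.59 ± 0.62 (SE, edgeR adjusted p = 0.992). Enah, a protein that protects growing actin filaments from capping, stood at 27.6, 26.6 and 22.1 CPM in WT and 17.7, 19.0 and 17.4 CPM in KO. Here all KO values were below all WT values, with a log2 fold change of -0.50 ± 0.35 (SE, edgeR adjusted p = 0.994).

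Genes whose pattern over the 6 replicates was nearest to that of each guidance gene were found by the root mean square distance between log2 profiles, each centred on its own mean, among tested genes with a mean of at least 10 CPM. Nrp2 was nearest to Prex2, a Rac exchange factor (distance 0.16), and to Lmod1, an actin-nucleating protein of smooth muscle (0.18), beside a median distance of 0.42. Prex2, picked because its pattern was like that of Nrp2, averaged 64.8 ± 23.0 CPM over WT and 39.8 ± 3.59 CPM over KO (SD, n = 3). By construction, every gene has a nearest neighbour. Unc5b was nearest to the folate carrier Slc19a1 (distance 0.099) and to Psap, the precursor of lysosomal saposins (0.11), with a median of 0.35. For Epha4 the nearest was Farp2, a pathway gene in its own right (distance 0.11), followed by Ncstn, a subunit of gamma-secretase (0.12), with a median of 0.29. Efna2 was nearest to Nkain2 and Bcr (0.12 and 0.13), Sema4c to Map4k4 and Pla2g4a (0.074 and 0.079) and Srgap2 to Ppip5k2 and Sbno2 (0.094 for both). The profiles of Plxna2, with Fabp7 and Gatd3a at 0.21 and 0.24, and of Adgrb3, with Pik3c2b and Chst3 at 0.19 for both, had less close neighbours. Fabp7 is a marker of astrocytes and progenitors and was highest, at 77.0 CPM, in WT replicate 1, as was Plxna2.

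**Figure D4:**
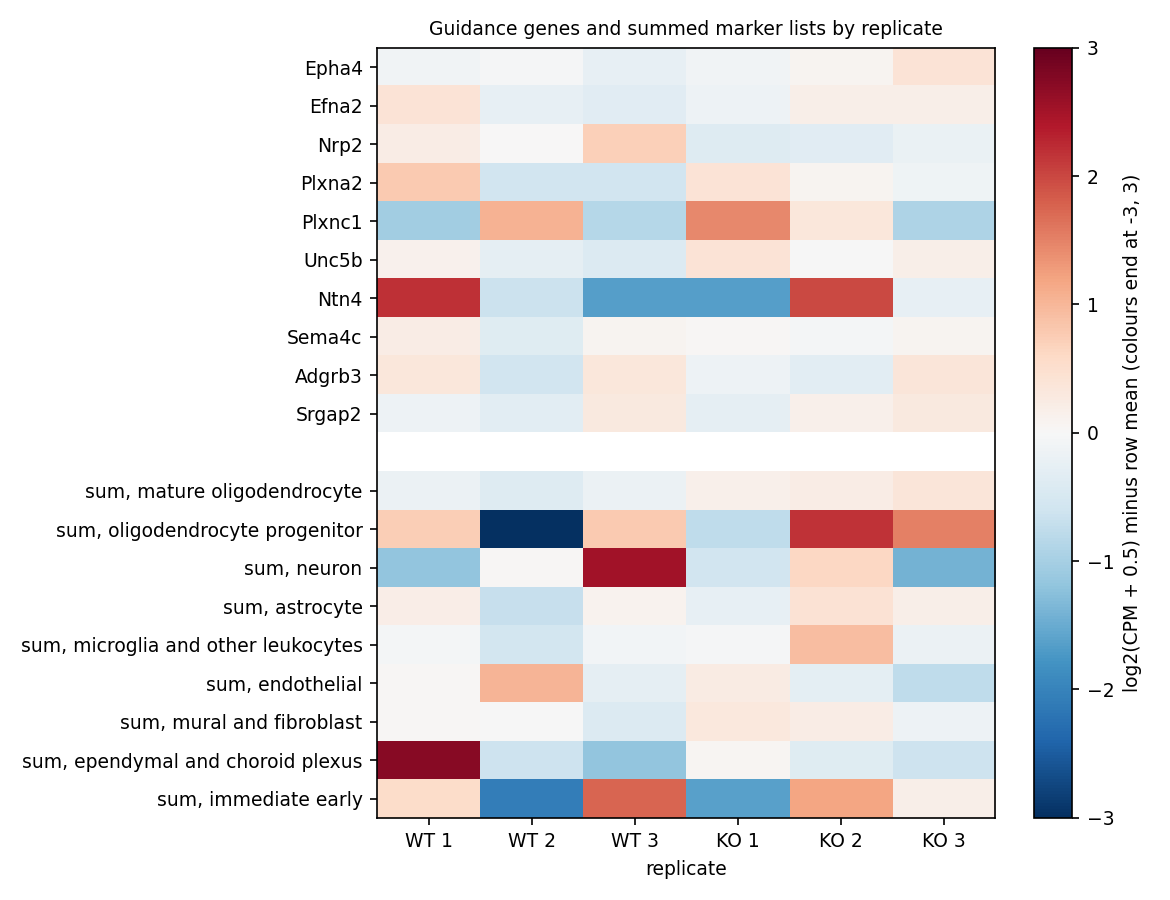
Log2(CPM + 0.5) minus the mean of each row, for the 10 guidance genes (upper block) and for the summed CPM of each marker list (lower block), by biological replicate. Ntn4 is highest in WT replicate 1 and KO replicate 2 and Plxnc1 in WT replicate 2 and KO replicate 1, while Nrp2 is lower in all KO columns than in all WT columns.

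The precision for these genes was that of the table at large. Log2 fold changes had a median SE of 0.21 among the 9 genes, the same as among all 1484, and 6 of the 9 (66.7%) had a 95% interval that stayed between -1 and 1, as did 63.6% of all genes. These 6 did not include Nrp2, Plxna2 or Plxnc1. With 3 replicates in each genotype, the smallest two-sided p of an exact permutation test is 0.1.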

How the data were processed

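The authors deposited raw read counts per Entrez Gene ID for 12 libraries, and the values were used as deposited. The submitters' processing notes name build mm10 and list featureCounts, HISAT2, fastp, FastQC, DESeq2 1.38.1, SAMtools 1.4.1 and CASAVA 1.8.2. The settings, annotation and use of strand are not given in those notes or in the labels. Libraries came from about 5.2 ng of total RNA and were read as 50 bp single ends, per the labels' protocols. The table held 2398 complete lines, and 1 incomplete line was left out. Columns named Ctrl and LmnaKO were matched to the WT and KO titles by replicate and library number. Of the gene IDs, 2226 matched a RefSeq symbol (GRCm38.p6), and 172 with 0.552% of the counts did not.

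The 2 libraries of a replicate were summed. The test of KO against WT used edgeR 4.0.16 (R 4.3.3; TMM factors between 0.951 and 1.05, filterByExpr, robust quasi-likelihood fit, Benjamini-Hochberg adjustment at 0.05). SE values were derived from the F statistic as the size of the log2 fold change over the root of F. The common biological coefficient of variation was 0.349. The fit was also run on simulated counts, and the outcome, including the power for small changes, is not reported here. Alternatives were other size factors and filters, DESeq2 1.42.0, limma-voom (limma 3.58.1), other treatments of the libraries, a replicate block and the omission of each replicate. DESeq2 without each replicate was added after seeing the data. The titles number replicates 1 to 3 in both genotypes, and the deviations of same-numbered replicates were correlated at -0.00214, -0.309 and 0.14 across genes, so the numbers were not taken to pair the samples.

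The genes described and all lists were chosen with earlier results of these data known. Named are the 10 genes, up to 4 called genes of each list or otherwise its 3 most abundant tested members, and the 2 genes nearest in pattern to each gene tested (pseudocount 0.5), of which those of Plxnc1 are not reported here. Replicates are biological per the protocol. Promoter windows come from RefSeq and transcript lengths from GENCODE M21, both on GRCm38. Intervals and floors cover counting error only.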

Additional observations from a re-analysis of the deposited data

How the results depend on the processing

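No gene of the set was called under other size factors, other filters, DESeq2, limma-voom, a single library per replicate, the replicate block or the edgeR fits without a replicate. In the replicate block, 0 genes of the table were called higher and 0 lower, with Nrp2 at -0.63 (edgeR adjusted p = 0.998) and Unc5b at 0.38 (adjusted p = 0.998). WT replicate 2 correlated best with KO replicate 1 (0.354), and the block changed no call.

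In the table as a whole, DESeq2 on 6 replicates called 6 genes higher and 1 lower, and edgeR on 12 separate libraries 31 and 18, of which 1 was a gene of the set (Nrp2) and 1 another pathway gene (Mical1, adjusted p = 0.0485). That fit counts 2 libraries from 1 replicate as independent samples by its construction. With WT replicates 1, 2 and 3 left out in turn, DESeq2 called 10, 10 and 3 genes higher in KO and 4, 0 and 2 lower. Omission of KO replicates 1, 2 and 3 gave 6, 0 and 11 higher and 1, 0 and 2 lower. Of the set, it called 1 gene, Unc5b, without WT replicate 1 and 0 in the other fits. The cause was not tested for DESeq2. Median log2 fold changes of the set moved by less than 0.22, the SD of that median over replicates, in every setting run, and mean levels by less than 1 SD. Without WT replicate 2, Ntn4 passed the filter and the median over all 10 genes was -0.051 in edgeR and -0.053 in DESeq2, while over the other 9 it was 0.0042 and 0.00495.

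The sign turned for Sema4c with total counts only (-0.017) and with the first library only (-0.0169), and for Plxna2 with the first library only (-0.069). Without each replicate in turn the log2 fold change ranged in edgeR from -0.036 to 0.37 for Efna2, -0.11 to 0.73 for Plxna2, -0.21 to 1.68 for Plxnc1, -0.12 to 0.14 for Sema4c, -0.34 to 0.063 for Adgrb3 and -0.0066 to 0.32 for Srgap2. In DESeq2 the same ranges were -0.041 to 0.38, -0.12 to 0.74, -0.21 to 1.69, -0.12 to 0.16, -0.33 to 0.058 and -0.0018 to 0.32. Between these ends DESeq2 also turned Adgrb3 without WT replicate 1 (0.0497) and KO replicate 2 (0.0527), Plxna2 without WT replicate 2 (-0.11) and KO replicate 1 (-0.031) and Sema4c without KO replicate 3 (-0.0144). The signs of Epha4, Nrp2 and Unc5b held in all 22 settings. Low counts limit Ntn4, Plxnc1 and Plxna2, whose replicates differed by more than counting error.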
